A study of Homo sapiens with 16 samples.

Results

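The 45 genes described here are known direct targets of the transcription factor p53 whose products lie outside the cell cycle inhibitors, MDM2, the TRAIL receptors and the BCL2 family. They were taken from a list of names rather than by a cut on measured values. That list was chosen with earlier results of these data known. The tables hold 56865 genes, and 41 of the 45 were among the 15687 with enough reads to be tested. The samples are poly(A)-selected RNA-seq libraries of NCI-H1299, a lung cancer line of the non-small cell type that has no p53, and of a stable derivative that expresses p53 Y220C, a structural mutant of p53. Cells received 10 µM MS78, a bifunctional compound designed to recruit p300/CBP acetyltransferase to the mutant protein, or DMSO for 24 h. The 4 groups of 4 libraries were p53-Y220C cells with MS78 (Y220C MS78), p53-Y220C cells with DMSO (Y220C DMSO), p53-null cells with MS78 (Null MS78) and p53-null cells with DMSO (Null DMSO). Only the p53-Y220C line was grown with 500 µg/mL G418, so transgene, G418 and line cannot be told apart where the lines are compared. The sources used here give neither the promoter that drives the transgene nor the number of clones behind the stable line. They also do not say whether the 4 libraries of a group are separate cultures, and p-values then reflect only how far these libraries vary, which may be technical.

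p53 binds DNA as a tetramer, at sites made of a pair of adjacent elements, and raises transcription of genes that act in growth arrest, death, DNA repair and metabolism. The Y220C change opens a surface crevice that destabilises the DNA-binding domain, which lowers the share of folded protein that can bind such sites. Many of these genes also have activators other than p53, such as stress and growth factor pathways, and the p53-null line measures the response to MS78 that occurs without p53.

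Estimated reads per library were 20.3 M to 21.8 M in Y220C MS78, 20.7 M to 23.2 M in Y220C DMSO, 20.7 M to 27.7 M in Null MS78 and 22.5 M to 24.7 M in Null DMSO. In 8 libraries there were 55 to 99 reads of PTPRC, the leukocyte antigen CD45, and in the other 8 there were 0 or 1. The 8 were replicates 2 to 4 of both MS78 groups and replicate 1 of both DMSO groups, so this difference runs unevenly across treatment. Summed over 12 leukocyte markers, the level was 66.4 to 153 reads per 1000000 (CPM) in the 8 libraries and 2.75 to 10.3 CPM in the others. With the MS78 and line groups held fixed, a term for these libraries passed the test for 154 of the 15687 genes tested. Of the 41 target genes tested, 1 passed, CSF1. The epithelial markers summed to 609 to 647 CPM in Y220C MS78, 798 to 845 CPM in Y220C DMSO, 460 to 472 CPM in Null MS78 and 473 to 519 CPM in Null DMSO. Most of that sum was KRT8 and KRT18, while EPCAM reached at most 1.64 CPM and CDH1 at most 1.97 CPM in any library. NKX2-1, a marker of lung epithelium, was at 0.344 CPM or less. VIM, the intermediate filament vimentin, made up most of the mesenchymal and muscle marker sum and had 3526 to 4021 CPM in Y220C MS78, 5016 to 5272 CPM in Y220C DMSO, 5188 to 5349 CPM in Null MS78 and 5139 to 5611 CPM in Null DMSO. It fell in p53-Y220C cells (-0.41, SE 0.04, adjusted p = 8.19e-09) and had -0.02 (adjusted p = 0.707) in p53-null cells. Its interaction was -0.39 (SE 0.05, adjusted p = 1.03e-05). KRT8 and KRT18 also fell in p53-Y220C cells (-0.44 and -0.38), with interactions of -0.38 and -0.3 that passed. The other epithelial, mesenchymal and muscle markers tested did not pass in p53-Y220C cells. The part of these marker levels in the results below was not tested. A bulk library cannot tell fewer cells of a type from less RNA per cell.

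With MS78, 14 of the 41 tested target genes rose in p53-Y220C cells (34.1%, against 24.9% of all genes tested) and 9 fell (22%, against 23.6%). In p53-null cells 7 rose (17.1%, against 14.8%) and 7 fell (17.1%, against 13.3%). The interaction, which is the log2 fold change with MS78 in p53-Y220C cells minus that in p53-null cells, was above 0 and past the test for 10 genes (24.4%, against 14.4%) and below 0 for 5 (12.2%, against 12.4%). The median log2 fold change of the 41 was 0.095 in p53-Y220C cells, where all genes had -0.012, and -0.011 in p53-null cells, where all genes had 0.009. For the interaction the median was 0.077 over the 41 and -0.02 over all genes. The shares of genes that fell in p53-Y220C cells and of lower interactions were near those of all genes tested. In p53-null cells the shares that rose and that fell were also close to those of all genes tested. Since the list was chosen with earlier results of these data known, all these shares are given as a description.

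The genes separated into patterns by their 3 tests. DRAM1, EPHA2, PGF, PLK2, PLK3 and SERTAD1 rose in p53-Y220C cells, did not pass in p53-null cells and had a higher response in p53-Y220C cells by the interaction. AEN, BLOC1S2 and GDF15 rose in p53-Y220C cells, fell in p53-null cells and passed the interaction. TRAF4 rose in both lines with the larger response in p53-Y220C cells, and TP53INP1 rose in both with the smaller response there. RRM2B, TIGAR and ZMAT3 rose in both lines and DDB2, FDXR, PIDD1 and POLH fell in both, with no interaction call. NINJ1, SYTL1 and TP53I3 fell in p53-Y220C cells and STEAP3 fell in p53-Y220C cells and rose in p53-null cells, all with a lower response in p53-Y220C cells. KITLG rose in p53-null cells and ACTA2 fell in p53-Y220C cells, neither with an interaction call, and 17 genes passed none of the 3 tests. Both MS78 comparisons share the fit but no libraries.

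**Figure D1:**
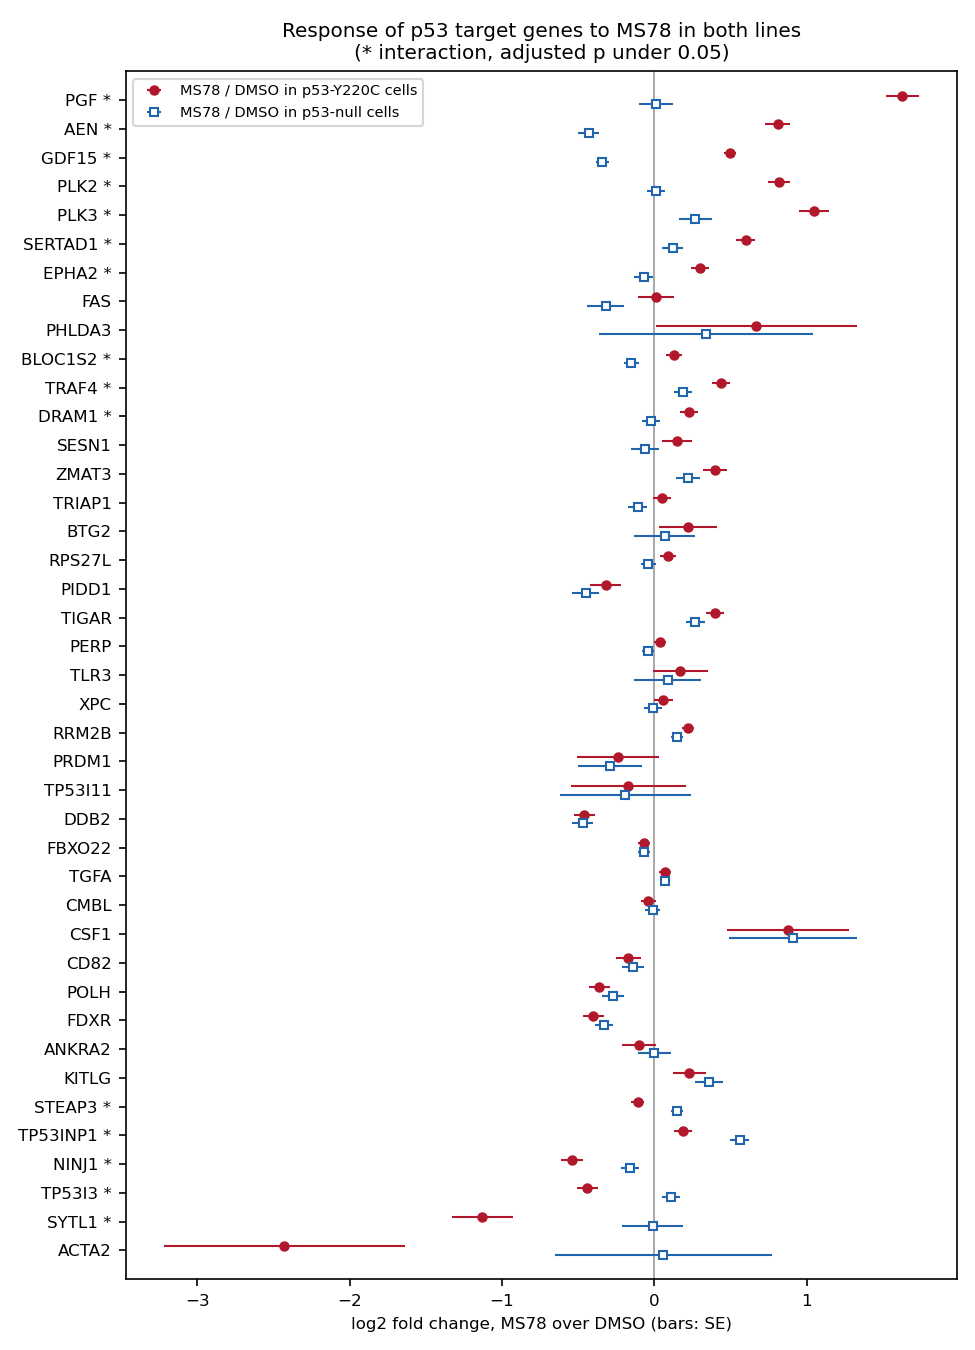
Log2 fold change (horizontal axis) of the 41 tested genes with MS78 over DMSO in p53-Y220C cells (filled red circles) and p53-null cells (open blue squares), with bars for the SE, ordered by the interaction from high to low. PGF stands at 1.63 in p53-Y220C cells and 0.01 in p53-null cells at the top, and DDB2, at -0.46 in p53-Y220C cells and -0.47 in p53-null cells, lies where both points nearly coincide.

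Among the 6 genes for secreted proteins, 5 were tested. PGF and GDF15 rose in p53-Y220C cells, where 24.9% of all genes tested rose. PGF (placental growth factor, a ligand of the VEGF family, chr14:74941834-74955784, minus strand, GRCh38) had 16.4, 15.8, 12.2 and 14.3 CPM in the 4 Y220C MS78 libraries, against 4.76, 5.02, 5.02 and 4.18 CPM in Y220C DMSO. It had 4.9, 4.36, 4.31 and 5.14 CPM in Null MS78, against 5.11, 4.74, 4.65 and 4.003 CPM in Null DMSO. Every Y220C MS78 library lay above the other 12 libraries, which overlapped one another. The log2 fold change was 1.63 (SE 0.11, adjusted p = 6.45e-11) in p53-Y220C cells, 0.01 (SE 0.11, adjusted p = 0.95) in p53-null cells and 1.62 (SE 0.15, adjusted p = 1.73e-07) for the interaction. The transcript PGF-203 carried most of the difference, with 178 ± 14.5 estimated reads in Y220C MS78 and 56.4 ± 10.3 in Y220C DMSO (SD, n = 4), and 64.7 ± 12.9 in Null MS78 and 65.2 ± 8.71 in Null DMSO. PGF-201 had 23.6 ± 5.13 reads in Y220C MS78 and means of 0.845 in Y220C DMSO, 0.859 in Null MS78 and 0 in Null DMSO.

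GDF15 (a stress-induced cytokine of the TGF-beta superfamily, chr19:18374731-18389176, plus strand) had 62.3, 61.3, 59.97 and 61.4 CPM in Y220C MS78, against 43.8, 43.5, 43.6 and 42.9 CPM in Y220C DMSO. In the p53-null line it had 35, 34.01, 36.5 and 34.5 CPM in Null MS78, against 47.3, 42.3, 41.5 and 46.3 CPM in Null DMSO. The lines moved in opposite directions without overlap between treated and vehicle libraries, from levels under DMSO that did not pass a test of their difference (-0.03, adjusted p = 0.583). The log2 fold change was 0.50 (SE 0.04, adjusted p = 6.83e-09) in p53-Y220C cells and -0.34 (SE 0.04, adjusted p = 3.96e-06) in p53-null cells, and the interaction was 0.84 (SE 0.06, adjusted p = 4.03e-09).

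KITLG, the ligand of the receptor KIT, averaged 5.45 ± 0.43 CPM in Y220C MS78 and 4.65 ± 0.58 CPM in Y220C DMSO (SD, n = 4), and 11.7 ± 0.49 CPM in Null MS78 and 9.12 ± 1.2 CPM in Null DMSO. It rose in p53-null cells (0.36, SE 0.09, adjusted p = 0.00668), a call lost with counts rebuilt from TPM and mean transcript length (0.30, adjusted p = 0.136), and its value in p53-Y220C cells was 0.23 (adjusted p = 0.0988), or 0.32 without Y220C DMSO replicate 4 (adjusted p = 0.0243). The interaction was -0.13 (adjusted p = 0.554), so the lines were not shown to differ. TGFA, a ligand of the EGF receptor, had 0.07 in p53-Y220C cells and 0.07 in p53-null cells and passed neither test, with an interval for the interaction of -0.12 to 0.10 (95%). Without Y220C DMSO replicate 3 its p53-Y220C value was 0.1 (adjusted p = 0.0335). CSF1, the growth factor of macrophages, had 0.88 (adjusted p = 0.0769) in p53-Y220C cells and 0.91 (adjusted p = 0.117) in p53-null cells, the largest values among the genes that did not pass. The p53-Y220C value passed when Null DMSO, Y220C DMSO or Y220C MS78 replicate 1 was left out (adjusted p of 0.0114 to 0.0441), and the p53-null value without Null DMSO or Null MS78 replicate 1 (0.0131 to 0.0394). With no filter on low counts both passed (0.87 with adjusted p = 0.000249 in p53-Y220C cells, and 0.90 with adjusted p = 0.000508 in p53-null cells).

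CSF1 is the gene among the 45 that passed with the leukocyte reads (1.35 on the log2 scale, SE 0.14, adjusted p = 2.22e-06). It had 67, 133, 113 and 162 reads in replicates 1 to 4 of Y220C MS78, against 138, 54, 46 and 49 in Y220C DMSO, and 49, 119, 104 and 148 in Null MS78, against 108, 33, 45 and 34 in Null DMSO. The higher values were all in the 8 libraries with PTPRC reads. With a term for those libraries its MS78 values were 0.27 (adjusted p = 0.249) in p53-Y220C cells and 0.29 (adjusted p = 0.32) in p53-null cells. TRIM22, an interferon-induced E3 ligase with too few reads to be tested, had 2, 11, 8 and 6 reads in Y220C MS78, against 5, 0, 1 and 1 in Y220C DMSO, and 2, 10, 23 and 11 in Null MS78, against 2, 1, 3 and 4 in Null DMSO. SERPINB5, a serpin also called maspin, had 0 to 4 reads per library and was not tested. A count of 0 allows up to 3 reads, by counting error alone.

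**Figure D2:**
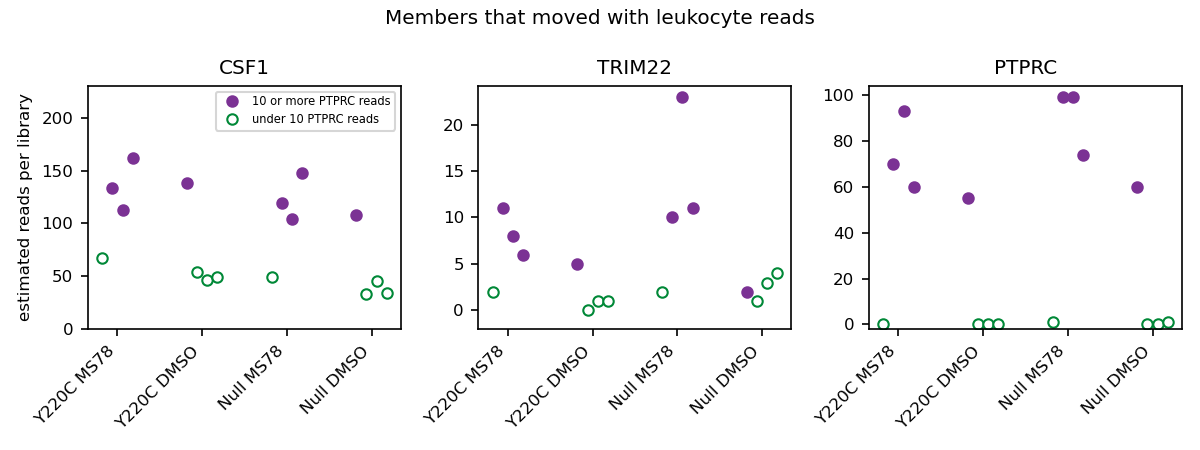
Estimated reads per library (vertical axes) of CSF1, TRIM22 and the leukocyte antigen gene PTPRC in the 4 groups, with libraries that held 10 or more PTPRC reads as filled purple circles and the others as open green circles. CSF1 had 104 to 162 reads in the filled libraries and 33 to 67 in the open ones, whichever the treatment or line.

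Of the 7 genes for receptors and other membrane proteins, 6 were tested. EPHA2 rose and NINJ1 fell in p53-Y220C cells, where 24.9% of all genes tested rose and 23.6% fell. None of the 6 passed in p53-null cells, where 14.8% of all genes tested rose and 13.3% fell. EPHA2, a receptor tyrosine kinase for ephrins, had 239, 244, 238 and 266 CPM in Y220C MS78, against 206, 214, 193 and 187 CPM in Y220C DMSO, without overlap. It had 165, 179, 175 and 179 CPM in Null MS78, against 197, 197, 171 and 165 CPM in Null DMSO, where the groups overlapped. The log2 fold change was 0.30 (SE 0.06, adjusted p = 0.00018) in p53-Y220C cells and -0.07 (SE 0.06, adjusted p = 0.446) in p53-null cells, and the interaction was 0.37 (SE 0.08, adjusted p = 0.00202). NINJ1, which mediates rupture of the plasma membrane in lytic cell death, had 13.9, 11.97, 15.1 and 14.2 CPM in Y220C MS78, against 19.1, 21.1, 19.5 and 20.5 CPM in Y220C DMSO. It had 22.6, 20.8, 23.2 and 24.2 CPM in Null MS78, against 25.4, 24.1, 26.9 and 24.7 CPM in Null DMSO. Only the p53-Y220C libraries separated fully by treatment, and the values were -0.54 (SE 0.07, adjusted p = 1.61e-06) in p53-Y220C cells, -0.16 (SE 0.06, adjusted p = 0.0669) in p53-null cells and -0.38 (SE 0.09, adjusted p = 0.00414) for the interaction. The p53-null value passed without Null MS78 replicate 4 or Y220C MS78 replicate 2 (adjusted p of 0.0399 to 0.0451).

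FAS, the death receptor that starts the extrinsic apoptosis pathway, did not pass in either line and its promoter window holds a close match to the p53 consensus. It averaged 8.39 ± 0.75 CPM in Y220C MS78 and 8.34 ± 0.74 CPM in Y220C DMSO (SD, n = 4), and 6.495 ± 1 CPM in Null MS78 and 8.08 ± 1.2 CPM in Null DMSO. Its log2 fold changes were 0.01 (SE 0.12, adjusted p = 0.95) in p53-Y220C cells and -0.32 (SE 0.12, adjusted p = 0.0511) in p53-null cells, with an interaction of 0.33 (SE 0.17, adjusted p = 0.161) whose 95% interval was -0.04 to 0.70. The p53-null value passed under all 5 of DESeq2, no filter on low counts, a filter of 1 CPM, counts rebuilt from TPM and a term for the libraries with PTPRC reads (-0.54 to -0.32, adjusted p of 0.0306 to 0.0463). It also passed when Null DMSO replicate 2, Null MS78 replicate 4, or replicate 1 of Y220C DMSO or Y220C MS78 was left out (0.0155 to 0.0481). FAS (chr10:88990582-89015785, plus strand) and ACTA2, smooth muscle actin (chr10:88935074-88991339, minus strand), lie on opposite strands and overlap by 758 bases, and the same 20 bases at chr10:88991309-88991328 match the consensus in the promoter windows of both. They are shown on the strand of each gene, with each core, from C to G, in capitals.
FAS: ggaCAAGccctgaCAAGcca
ACTA2: tggCTTGtcagggCTTGtcc
In FAS these bases lie 122 to 103 bases before the start, and in ACTA2 10 to 29 bases after it. ACTA2 had 0.442, 0, 0.991 and 0.102 CPM in Y220C MS78, against 0.5999, 1.303, 4.55 and 1.82 CPM in Y220C DMSO, and 0.933, 0.972, 2.196 and 0.194 CPM in Null MS78, against 2.23, 1.03, 0.517 and 0.393 CPM in Null DMSO. Replicate 3 of Y220C DMSO was above all other libraries, and the groups overlapped. It fell by 2.43 on the log2 scale in p53-Y220C cells (SE 0.79, adjusted p = 0.0151), and without that library the value was -1.69 (adjusted p = 0.096). The interaction was -2.49 (SE 1.06, adjusted p = 0.0921), and it passed without Null DMSO replicate 1 or Y220C MS78 replicate 3 (adjusted p of 0.0365 and 0.0347) and with no filter on low counts (adjusted p = 0.000499).

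TLR3, the endosomal sensor of double-stranded RNA, CD82, a tetraspanin that restrains metastasis, and PERP, a tetraspan protein of desmosomes, passed with MS78 in neither line over all libraries. Their log2 fold changes were 0.17, -0.17 and 0.04 in p53-Y220C cells and 0.09, -0.14 and -0.04 in p53-null cells. Without Y220C DMSO replicate 4 CD82 had -0.22 in p53-Y220C cells (adjusted p = 0.0438). With no filter on low counts it had -0.18 there (adjusted p = 0.0243). With a term for the libraries with PTPRC reads it passed in both lines, at -0.24 in p53-Y220C cells (adjusted p = 0.0152) and -0.22 in p53-null cells (adjusted p = 0.0258). EDA2R, a receptor of the TNF receptor family that binds an ectodysplasin isoform, had 0 to 2 reads in Y220C MS78, 0 to 4 in Y220C DMSO, 1 to 10 in Null MS78 and 7 to 18 in Null DMSO and was not tested.

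Among the 8 genes of cell death and autophagy, 7 were tested. AEN, DRAM1, TRAF4 and TP53INP1 rose in p53-Y220C cells and PIDD1 fell, where 24.9% of all genes tested rose and 23.6% fell. AEN, a nuclease that promotes apoptosis (chr15:88621296-88632282, plus strand), had 20.6, 21.5, 18.8 and 19.02 CPM in Y220C MS78, against 11.7, 11.2, 12.7 and 10 CPM in Y220C DMSO. It had 15.4, 12.8, 14.2 and 15.2 CPM in Null MS78, against 19.4, 19.3, 18.4 and 20.5 CPM in Null DMSO. Treated and vehicle libraries separated fully in both lines and in opposite directions, and the p53-Y220C line was lower under DMSO (-0.77, adjusted p = 5e-08). The log2 fold change was 0.81 (SE 0.08, adjusted p = 2.39e-08) in p53-Y220C cells and -0.43 (SE 0.07, adjusted p = 0.00011) in p53-null cells, and the interaction was 1.24 (SE 0.11, adjusted p = 3.64e-08), a 2.37-fold difference of responses. The 250 bases before its annotated start (chr15:88621090-88621339, plus strand, GRCh38.p14, from RefSeq) are printed because AEN had the largest interaction that passed among genes with a consensus match. The match is in capitals and lies 34 to 15 bases before the start.
AEN: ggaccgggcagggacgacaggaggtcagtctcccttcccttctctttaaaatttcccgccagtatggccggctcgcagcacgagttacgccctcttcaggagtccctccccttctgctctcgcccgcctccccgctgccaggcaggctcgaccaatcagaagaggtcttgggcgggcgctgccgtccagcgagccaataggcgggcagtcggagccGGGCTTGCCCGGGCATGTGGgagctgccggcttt

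TRAF4, an adaptor of TNF receptor signalling, had 29.4, 27.3, 27.5 and 30.7 CPM in Y220C MS78, against 21.7, 22.7, 20.7 and 19.4 CPM in Y220C DMSO, and 23.2, 23.9, 25.1 and 25.3 CPM in Null MS78, against 23.2, 22.7, 19.8 and 19.7 CPM in Null DMSO. It rose in p53-Y220C cells (0.44, SE 0.06, adjusted p = 7.67e-06) and in p53-null cells (0.19, SE 0.06, adjusted p = 0.0296), with an interaction of 0.26 (SE 0.09, adjusted p = 0.0413). In p53-Y220C cells every MS78 library was above every DMSO library. In p53-null cells the lowest MS78 library (23.18 CPM) and the highest DMSO library (23.17 CPM) were nearly equal. DRAM1, a lysosomal protein that promotes autophagy, had 15.2, 16.99, 14.3 and 15.9 CPM in Y220C MS78, against 13.4, 12.8, 13.6 and 13.6 CPM in Y220C DMSO, and 16.3, 15.01, 14.96 and 15.2 CPM in Null MS78, against 15.8, 15.7, 15.6 and 15.2 CPM in Null DMSO. It rose in p53-Y220C cells (0.23, SE 0.06, adjusted p = 0.00383) and had -0.02 (adjusted p = 0.861) in p53-null cells, with an interaction of 0.24 (SE 0.08, adjusted p = 0.0353). The groups separated in p53-Y220C cells and overlapped in p53-null cells. Both interactions are close to the threshold. The TRAF4 call ended when any of 8 libraries was left out (adjusted p of 0.0696 to 0.104), which were replicates 1 and 4 of Y220C MS78, 3 and 4 of Y220C DMSO, and 1 and 2 of Null MS78 and Null DMSO. The DRAM1 call ended without any of 10 (0.051 to 0.0822), replicates 2 and 4 of Y220C MS78, 1 and 2 of Y220C DMSO, 2 to 4 of Null MS78 and 1 to 3 of Null DMSO. With no filter on low counts both interactions were lost (adjusted p of 0.0598 for TRAF4 and 0.171 for DRAM1), and with DESeq2 that of DRAM1 (0.0716). Counts rebuilt from TPM and mean transcript length gave an interaction of 0.20 (adjusted p = 0.639) for TRAF4 and -0.04 for DRAM1, whose direction was then reversed. They also ended the p53-Y220C responses of TRAF4 (0.35, adjusted p = 0.134) and DRAM1 (0.15, adjusted p = 0.348) and the p53-null response of TRAF4 (0.15, adjusted p = 0.645), which ended too with a term for the libraries with PTPRC reads (0.16, adjusted p = 0.0981). The p53-null response of TRAF4 was lost when replicate 3 or 4 of Null MS78 or of Null DMSO was left out (adjusted p of 0.0774 to 0.121).

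TP53INP1, a stress protein of apoptosis and autophagy, had 50.7, 57.4, 50.7 and 51.1 CPM in Y220C MS78, against 41.9, 43.5, 49.7 and 48.6 CPM in Y220C DMSO. It had 49.4, 47.2, 45.3 and 45.96 CPM in Null MS78, against 30.8, 30.01, 33.5 and 33.2 CPM in Null DMSO. The Null DMSO libraries were the lowest of the 16. The log2 fold change was 0.19 (SE 0.06, adjusted p = 0.0094) in p53-Y220C cells and 0.56 (SE 0.06, adjusted p = 2.76e-07) in p53-null cells, and the interaction was -0.37 (SE 0.08, adjusted p = 0.00253).

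PIDD1, the core of the PIDDosome that activates caspase-2, had 5.25, 5.45, 4.64 and 5.78 CPM in Y220C MS78, against 6.04, 6.903, 5.92 and 7.51 CPM in Y220C DMSO, and 6.96, 7.38, 7.83 and 7.76 CPM in Null MS78, against 10.98, 10.4, 10.4 and 9.14 CPM in Null DMSO. It fell in p53-Y220C cells (-0.32, SE 0.10, adjusted p = 0.0123) and in p53-null cells (-0.45, SE 0.09, adjusted p = 0.000687), with an interaction of 0.13 (adjusted p = 0.518), and the MS78 libraries were below the DMSO libraries in both lines without overlap. Without Y220C DMSO replicate 4 the p53-Y220C value was -0.25 (adjusted p = 0.0565), and with counts rebuilt from TPM it was -0.35 (adjusted p = 0.124). PIDD1 overlaps RPLP2 on the opposite strand, which had a mean of 9132 reads where PIDD1 had 169, and since the strand used in counting is not given its values are uncertain. The same holds for ACTA2, ANKRA2, POLH, PRDM1, RPS27L, TRIM22 and XPC. With PIDD1 they are the 8 genes where a gene on the opposite strand has over 50% of the member's reads. These overlaps are of whole genes, introns included, and overlap of exons was not examined. TRIAP1, an inhibitor of apoptosis, and PHLDA3, an inhibitor of AKT, passed neither MS78 test (0.05 and 0.67 in p53-Y220C cells, -0.11 and 0.34 in p53-null cells). SPATA18, which takes part in mitochondrial quality control, had 0 reads in all 16 libraries.

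Of the 4 genes of DNA repair and nucleotide supply, DDB2 and POLH fell and RRM2B rose in both lines, and none passed the interaction. Over all genes tested, 24.9% rose and 23.6% fell in p53-Y220C cells, and 14.8% rose and 13.3% fell in p53-null cells. The interaction was higher for 14.4% of all genes tested and lower for 12.4%. DDB2, which recognises ultraviolet damage for excision repair (chr11:47214465-47239240, plus strand), had 15.7, 13.8, 13.2 and 13.4 CPM in Y220C MS78, against 20.1, 17.9, 18.6 and 20.7 CPM in Y220C DMSO. It had 15.1, 14.8, 15.8 and 16.2 CPM in Null MS78, against 23.8, 19.8, 21.9 and 19.8 CPM in Null DMSO. Every MS78 library was below every DMSO library of its line. DDB2 fell in p53-Y220C cells (-0.46, SE 0.07, adjusted p = 2.29e-05) and in p53-null cells (-0.47, SE 0.07, adjusted p = 2.67e-05), and the 95% interval of the interaction was -0.22 to 0.22. The bases around its start (chr11:47214724-47214999, plus strand, GRCh38.p14, from RefSeq) are printed because they hold the match with the fewest mismatches among the 45 genes, 0 with a spacer of 1 base at chr11:47214979-47214999. The capitals mark it together with a match that overlaps it.
DDB2: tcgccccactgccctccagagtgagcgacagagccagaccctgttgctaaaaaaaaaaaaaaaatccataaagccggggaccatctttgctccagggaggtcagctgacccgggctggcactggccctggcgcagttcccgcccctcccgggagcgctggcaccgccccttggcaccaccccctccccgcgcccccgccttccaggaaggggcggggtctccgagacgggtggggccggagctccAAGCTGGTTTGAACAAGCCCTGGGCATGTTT

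POLH, the DNA polymerase eta that copies past ultraviolet damage, had 15.8, 17.96, 15.5 and 15.9 CPM in Y220C MS78, against 21.4, 19.6, 22.3 and 20.04 CPM in Y220C DMSO, and 14, 15.04, 14.5 and 13.7 CPM in Null MS78, against 19.1, 16.99, 17.5 and 15.8 CPM in Null DMSO. It fell in p53-Y220C cells (-0.36, SE 0.07, adjusted p = 0.000164) and in p53-null cells (-0.27, SE 0.07, adjusted p = 0.00373), and it overlaps GTPBP2 on the opposite strand, a gene with a mean of 1347 reads where POLH had 387. Its treated libraries were all below the vehicle libraries of their line. RRM2B, the p53-inducible small subunit of ribonucleotide reductase, had 126, 129, 135 and 123 CPM in Y220C MS78, against 107, 106, 112 and 116 CPM in Y220C DMSO, and 133, 124, 128 and 121 CPM in Null MS78, against 107, 115, 117 and 118 CPM in Null DMSO. It rose in p53-Y220C cells (0.22, SE 0.04, adjusted p = 0.000313) and in p53-null cells (0.15, SE 0.04, adjusted p = 0.0123), where without Null MS78 replicate 1 the value was 0.12 (adjusted p = 0.0505). Its treated libraries were above the vehicle ones in both lines. XPC, the other damage sensor of excision repair among these genes, had 0.06 (adjusted p = 0.382) in p53-Y220C cells and -0.01 (adjusted p = 0.907) in p53-null cells.

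Of the 6 genes of metabolism and redox balance, TIGAR rose and FDXR, TP53I3 and STEAP3 fell in p53-Y220C cells, where 24.9% of all genes tested rose and 23.6% fell. TIGAR, a phosphatase that lowers glycolytic flux, had 38.8, 34.1, 39.5 and 34.9 CPM in Y220C MS78, against 28.7, 26.7, 28.7 and 27.4 CPM in Y220C DMSO, and 32.5, 31.8, 33.1 and 36.02 CPM in Null MS78, against 29.6, 28.6, 25.98 and 26.7 CPM in Null DMSO. The treated libraries were above the vehicle ones in both lines, by 0.40 (SE 0.06, adjusted p = 8.91e-06) in p53-Y220C cells and 0.27 (SE 0.06, adjusted p = 0.00137) in p53-null cells, with an interaction of 0.13 (SE 0.08, adjusted p = 0.246). FDXR, the mitochondrial ferredoxin reductase, had 17.2, 14.3, 14.7 and 12.8 CPM in Y220C MS78, against 19.1, 20.9, 19.2 and 18.9 CPM in Y220C DMSO, and 27.3, 27.9, 29.1 and 31.1 CPM in Null MS78, against 35.3, 37.1, 37.5 and 34.6 CPM in Null DMSO. It fell in p53-Y220C cells (-0.40, SE 0.07, adjusted p = 0.000112) and in p53-null cells (-0.33, SE 0.06, adjusted p = 0.000399), without overlap in either line. Its level under DMSO was also lower in p53-Y220C cells (-0.89, adjusted p = 7.26e-10).

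TP53I3, a quinone oxidoreductase also called PIG3, had 14.9, 13.4, 14.7 and 15.1 CPM in Y220C MS78, against 20.5, 22.3, 19.6 and 16.7 CPM in Y220C DMSO, and 28.1, 27.9, 29.8 and 28.3 CPM in Null MS78, against 26.98, 25.7, 27.3 and 25.5 CPM in Null DMSO. It fell in p53-Y220C cells (-0.44, SE 0.07, adjusted p = 2.91e-05), had 0.11 (adjusted p = 0.203) in p53-null cells and an interaction of -0.56 (SE 0.10, adjusted p = 0.000197). Its MS78 libraries were below the DMSO ones in p53-Y220C cells and above them in p53-null cells. STEAP3, a ferrireductase, had 83.8, 82.4, 78.7 and 82.4 CPM in Y220C MS78, against 83.8, 88.5, 93.4 and 88.4 CPM in Y220C DMSO, and 93.8, 84.5, 88.7 and 88.6 CPM in Null MS78, against 79.4, 82.1, 80.4 and 78.6 CPM in Null DMSO. The p53-Y220C groups overlapped and the p53-null groups did not, with -0.11 (SE 0.04, adjusted p = 0.0263) in p53-Y220C cells, 0.15 (SE 0.04, adjusted p = 0.00735) in p53-null cells and an interaction of -0.26 (SE 0.06, adjusted p = 0.00174). The p53-Y220C call was lost without Y220C DMSO replicate 3 (adjusted p = 0.108) or Y220C MS78 replicate 3 (adjusted p = 0.0867), and with a term for the libraries with PTPRC reads (-0.08, adjusted p = 0.121). SESN1, a sestrin that restrains mTORC1, had 0.15 (adjusted p = 0.202) in p53-Y220C cells and -0.06 (adjusted p = 0.714) in p53-null cells. CMBL, a hydrolase, had -0.04 (adjusted p = 0.559) in p53-Y220C cells and -0.01 (adjusted p = 0.904) in p53-null cells.

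Among the 9 genes of signalling and gene expression, 8 were tested. PLK2, PLK3, SERTAD1 and ZMAT3 rose in p53-Y220C cells and none fell, where 24.9% of all genes tested rose and 23.6% fell. PLK2, a polo-like kinase induced by stress (chr5:58453982-58460260, minus strand), had 21.4, 19.8, 19.03 and 18.9 CPM in Y220C MS78, against 11.01, 11.2, 12.2 and 10.3 CPM in Y220C DMSO. It had 33.8, 34.4, 34.1 and 37.3 CPM in Null MS78, against 32.2, 32.3, 38.2 and 35.8 CPM in Null DMSO. Treated p53-Y220C libraries lay above their vehicle libraries and below all p53-null libraries. The log2 fold change was 0.82 (SE 0.07, adjusted p = 8.12e-09) in p53-Y220C cells and 0.01 (SE 0.06, adjusted p = 0.934) in p53-null cells, the interaction was 0.82 (SE 0.09, adjusted p = 1.94e-06), and the difference of p53-Y220C from p53-null cells under DMSO was -1.63 (SE 0.07, adjusted p = 1.15e-13).

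PLK3, a related kinase (chr1:44800225-44805990, plus strand), had 10.2, 8.66, 11.4 and 11.1 CPM in Y220C MS78, against 5.06, 4.97, 5.31 and 4.62 CPM in Y220C DMSO, and 4.94, 5.08, 5.18 and 4.17 CPM in Null MS78, against 4.16, 3.75, 3.71 and 4.51 CPM in Null DMSO. It rose in p53-Y220C cells (1.05, SE 0.10, adjusted p = 4.47e-08), had 0.27 (adjusted p = 0.0783) in p53-null cells and an interaction of 0.78 (SE 0.15, adjusted p = 0.000609). Without Null MS78 replicate 4 the p53-null value was 0.33 (adjusted p = 0.0394). SERTAD1, a cofactor of cyclin D kinases and E2F (chr19:40421592-40426025, minus strand), had 70.8, 70.4, 68.6 and 71.2 CPM in Y220C MS78, against 49.2, 49.2, 45.7 and 40.7 CPM in Y220C DMSO, and 32.2, 34.5, 34.1 and 36.2 CPM in Null MS78, against 31.1, 35.6, 31.9 and 27.7 CPM in Null DMSO. Its values were 0.60 (SE 0.06, adjusted p = 1.12e-07) in p53-Y220C cells, 0.12 (adjusted p = 0.217) in p53-null cells and 0.49 (SE 0.09, adjusted p = 0.00056) for the interaction. For both genes every Y220C MS78 library lay above every other library.

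ZMAT3, an RNA-binding protein that regulates splicing, had 36.2, 36.5, 37.03 and 36.3 CPM in Y220C MS78, against 23.8, 26.1, 29.9 and 30.9 CPM in Y220C DMSO, and 28.8, 27.4, 28.3 and 26.6 CPM in Null MS78, against 24.8, 22.8, 20.5 and 27.2 CPM in Null DMSO. It rose in p53-Y220C cells (0.40, SE 0.08, adjusted p = 0.000194) and in p53-null cells (0.22, SE 0.08, adjusted p = 0.0386), where the groups overlapped and the call was lost when replicate 1, 2 or 3 of Null MS78 or replicate 2 or 3 of Null DMSO was left out (adjusted p of 0.0647 to 0.166). BTG2, an antiproliferative cofactor of mRNA deadenylation, PRDM1, the transcriptional repressor BLIMP1, FBXO22, an F-box protein of a ubiquitin ligase, and ANKRA2, an ankyrin repeat protein, passed neither MS78 test. Their log2 fold changes were 0.22, -0.24, -0.07 and -0.10 in p53-Y220C cells and 0.07, -0.29, -0.07 and 0.00 in p53-null cells.

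**Figure D3:**
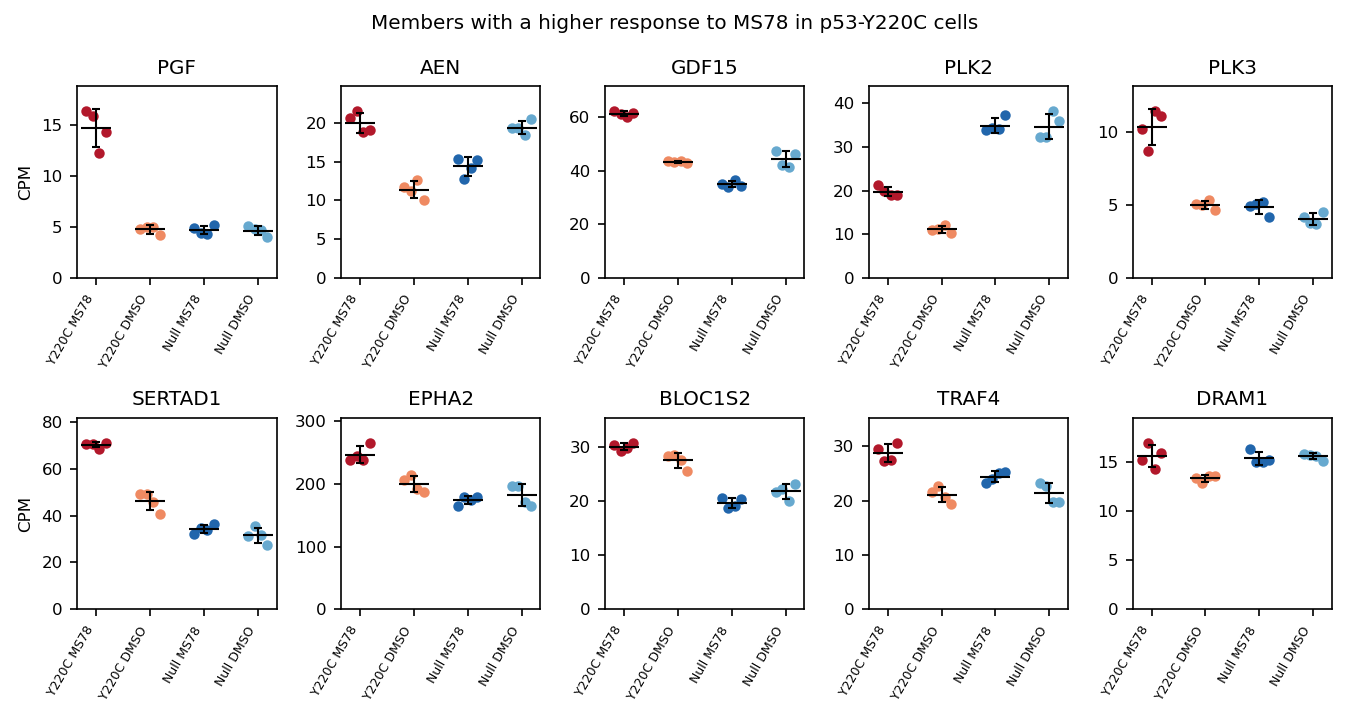
CPM (vertical axes) in each library of the 10 genes with a higher response to MS78 in p53-Y220C cells, with lines for the mean and bars for the SD of 4 libraries. For PGF, PLK3 and SERTAD1 all Y220C MS78 libraries stand above the other 12, while for PLK2 they stand between Y220C DMSO and the p53-null libraries.

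The remaining 5 genes were SYTL1, BLOC1S2, RPS27L, TP53I11 and ACTA2, which is described above with FAS. SYTL1, a synaptotagmin-like protein of vesicle transport, had 1.08, 2.38, 1.36 and 1.57 CPM in Y220C MS78, against 3.21, 4.2, 3.66 and 2.98 CPM in Y220C DMSO, and 1.71, 2.196, 2.07 and 1.65 CPM in Null MS78, against 1.72, 1.94, 2.198 and 1.84 CPM in Null DMSO. It fell in p53-Y220C cells (-1.13, SE 0.20, adjusted p = 0.000113), had -0.01 (adjusted p = 0.983) in p53-null cells and an interaction of -1.12 (SE 0.29, adjusted p = 0.00649). The Y220C DMSO libraries were the highest of the 16, and the other 3 groups overlapped. Its reads were few, 22 to 49 per library in Y220C MS78 and 67 to 87 in Y220C DMSO. BLOC1S2, a subunit of the BLOC-1 complex of lysosome-related organelles, had 30.2, 29.2, 29.8 and 30.7 CPM in Y220C MS78, against 28.2, 28.5, 27.6 and 25.4 CPM in Y220C DMSO, and 20.5, 18.6, 19.02 and 20.4 CPM in Null MS78, against 21.7, 22.2, 19.99 and 23.1 CPM in Null DMSO. Its responses were small, 0.13 (SE 0.05, adjusted p = 0.0474) in p53-Y220C cells and -0.15 (SE 0.05, adjusted p = 0.0424) in p53-null cells, with an interaction of 0.28 (SE 0.08, adjusted p = 0.0086). With DESeq2 neither of those responses passed (adjusted p of 0.0759 in p53-Y220C cells and 0.0732 in p53-null cells), and the p53-Y220C groups separated while the p53-null groups overlapped. The p53-Y220C call was lost without any of 12 libraries (adjusted p of 0.0502 to 0.161), all but Null DMSO replicates 3 and 4, Null MS78 replicate 2 and Y220C DMSO replicate 2. The p53-null call was lost without any of 7 libraries (adjusted p of 0.0533 to 0.137), Y220C MS78 replicate 4, Y220C DMSO replicate 3, Null MS78 replicates 2 and 3 and Null DMSO replicates 1, 2 and 4. Both responses were also lost with no filter on low counts, with counts rebuilt from TPM and with a term for the libraries with PTPRC reads (adjusted p of 0.0679 to 0.371), and the p53-Y220C one with a filter of 1 CPM (0.0566). The interaction was lost with counts rebuilt from TPM (0.25, adjusted p = 0.126). RPS27L, a paralogue of a small-subunit ribosomal protein, had 0.09 (adjusted p = 0.164) in p53-Y220C cells and -0.04 (adjusted p = 0.638) in p53-null cells, and with counts rebuilt from TPM the p53-Y220C value was 0.26 (adjusted p = 0.0175). TP53I11 had -0.17 (adjusted p = 0.743) in p53-Y220C cells and -0.19 (adjusted p = 0.799) in p53-null cells, from few reads.

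**Figure D4:**
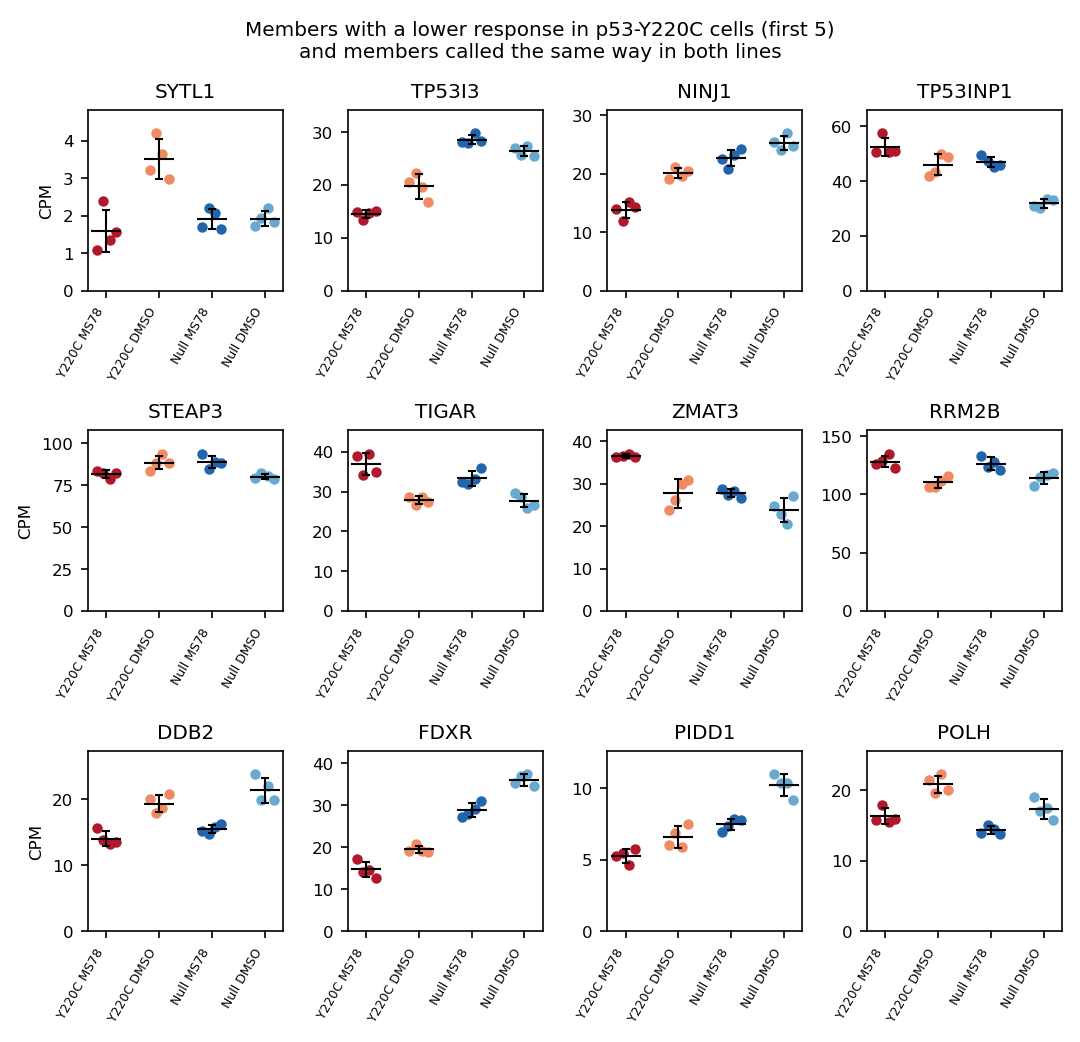
CPM (vertical axes) in each library of the 5 genes with a lower response to MS78 in p53-Y220C cells (SYTL1, TP53I3, NINJ1, TP53INP1 and STEAP3) and the 7 called the same way in both lines, with lines for the mean and bars for the SD of 4 libraries. DDB2, FDXR, PIDD1 and POLH are lower in the MS78 groups of both lines, and TIGAR, ZMAT3 and RRM2B are higher.

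The interaction was recomputed separately in the 8 libraries that held PTPRC reads and in the 8 others, with 3 MS78 libraries and 1 DMSO library of each line in the first set and 1 and 3 in the second. The lone library is assumed to vary like the others, so the p-values of these fits rest on that assumption and the values are given as a description. PGF gave 1.75 (adjusted p = 0.000639) with and 1.66 (adjusted p = 0.00492) without those reads. AEN gave 1.24 (adjusted p = 0.000417) with and 1.21 (adjusted p = 0.00683) without, GDF15 gave 0.93 (adjusted p = 2.2e-05) with and 0.84 (adjusted p = 0.0049) without, and PLK2 gave 0.70 (adjusted p = 0.00379) with and 1.00 (adjusted p = 0.0117) without. Outside these sets, the 4 interactions passed under every alternative run. PLK3 gave 0.84 (adjusted p = 0.0697) with and 0.73 (adjusted p = 0.158) without, SYTL1 gave -1.04 (adjusted p = 0.191) with and -1.51 (adjusted p = 0.105) without, and NINJ1 gave -0.30 (adjusted p = 0.316) with and -0.38 (adjusted p = 0.231) without. BLOC1S2 gave 0.27 with and 0.25 without, TRAF4 gave 0.32 and 0.34, and DRAM1 gave 0.32 and 0.12. TP53INP1 gave -0.23 with and -0.51 without, and STEAP3 gave -0.16 and -0.32. PLK3, SYTL1, NINJ1, BLOC1S2, TRAF4, DRAM1, TP53INP1 and STEAP3 passed in neither set. All 15 interactions kept their direction in both sets. EPHA2, SERTAD1 and TP53I3 passed with PTPRC reads and not without, where they gave 0.39, 0.63 and -0.49. Over all libraries their interactions were 0.37, 0.49 and -0.56. ZMAT3 also passed with PTPRC reads (0.49) and not without, and it had not passed over all libraries. The counts past the test, of 42 genes tested in each set, were 7 higher (16.7%, against 7.19% of all genes in that fit) and 1 lower (2.38%, against 4.16%) with PTPRC reads. They were 4 higher (9.52%, against 1.83%) and 0 lower (against 0.678%) without them.

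Between the lines under DMSO, 12 of the 41 genes were higher in p53-Y220C cells (29.3%, against 24.7% of all genes tested) and 13 were lower (31.7%, against 25.5%). The largest differences were TLR3, with 3.09 ± 0.45 CPM in Y220C DMSO and 0.8497 ± 0.11 CPM in Null DMSO (1.86, SE 0.20, adjusted p = 2.22e-07), and PLK2 and PRDM1 in the opposite direction. PRDM1 had 1.44 ± 0.26 CPM in Y220C DMSO and 4.23 ± 0.74 CPM in Null DMSO (-1.55, SE 0.23, adjusted p = 1.31e-05). TGFA (-1.02, adjusted p = 6.69e-15), KITLG (-0.97, adjusted p = 1.66e-07), CD82 (-0.93, adjusted p = 4.9e-09) and FDXR (-0.89, adjusted p = 7.26e-10) were also lower in p53-Y220C cells. Of the 10 genes with a higher MS78 response in p53-Y220C cells, AEN, DRAM1 and PLK2 were lower there under DMSO, BLOC1S2, PLK3 and SERTAD1 were higher and EPHA2, GDF15, PGF and TRAF4 did not pass. The PLK3 call was lost without replicate 1 or 3 of Y220C DMSO or 2 or 3 of Null DMSO (adjusted p of 0.0535 to 0.0764), with DESeq2 (0.0514) and with no filter on low counts (0.106). EPHA2 passed without Y220C DMSO replicate 4 or Null DMSO replicate 1 or 2 (adjusted p of 0.0268 to 0.03), with DESeq2 (0.0468) and with a term for the libraries with PTPRC reads (0.039). DRAM1 was lost with counts rebuilt from TPM (0.627), and CSF1 was higher with the PTPRC term (0.49, adjusted p = 0.0394). ZMAT3 was higher (0.21, adjusted p = 0.0276), which was lost without replicate 3 or 4 of Y220C DMSO or 2 or 3 of Null DMSO (0.0726 to 0.115). TP53I11 was higher (1.03, adjusted p = 0.0372), which was lost without any Y220C DMSO library or Null DMSO replicate 1 or 2 (0.0517 to 0.115), with no filter on low counts (0.0517) and with counts rebuilt from TPM (0.501). The median size of the difference under DMSO, regardless of sign, was 0.334 over the 41 genes and 0.226 over all genes tested. The difference under DMSO and both the p53-Y220C response and the interaction share the Y220C DMSO libraries.

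Promoter windows of RefSeq (250 bases before to 50 after the annotated start, GRCh38.p14) were matched by symbol for 38 of the 45 genes, with 54 windows in all, and not for CMBL, CSF1, FBXO22, PHLDA3, RRM2B, TP53INP1 and TRIM22. The p53 consensus was searched on both strands as a pair of 10-base elements separated by 0 or 1 base, with the C and G of each core required. At most 2 mismatches were found in 4 of the 54 windows (7.41%), those of ACTA2, AEN, DDB2 and FAS, against 187 of 35116 windows of all genes (0.533%). The ACTA2 and FAS matches are the same bases, counted once in each window. The 45 genes were listed as known p53 targets, so these shares are a description of the list. At most 3 mismatches were found in 9 windows (16.7%, against 2.38%), which adds FDXR, GDF15, RPS27L, SESN1 and TGFA. The shorter pattern CATGNNNNNNCATG, which can lie within the consensus, was found in 1 window, that of TRIAP1 (1.85%, against 0.373%). The matches are set below one another, with each core in capitals, so that they can be compared between genes that moved differently. Windows start from RefSeq's annotated start, which can differ from that of the GENCODE gene coordinates given above.
AEN: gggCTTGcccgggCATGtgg
GDF15: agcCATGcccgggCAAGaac
SESN1: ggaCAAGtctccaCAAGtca
TGFA: gggCAGGccctgcCTAGtct
RPS27L: ggcCTAGagcagaCAAGccc
FDXR: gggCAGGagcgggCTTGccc
DDB2: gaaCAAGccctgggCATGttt
TRIAP1: CATGcacggaCATG
They lie at chr15:88621306-88621325 (plus) for AEN, chr19:18386186-18386205 (plus) for GDF15, chr6:109009018-109009037 (minus) for SESN1 and chr2:70553863-70553882 (minus) for TGFA. The others are at chr15:63157527-63157546 (minus) for RPS27L, chr17:74872996-74873015 (minus) for FDXR and chr12:120446340-120446353 (minus) for TRIAP1. The genes with a match rose in p53-Y220C cells (AEN and GDF15), fell in both lines (DDB2 and FDXR), fell in p53-Y220C cells (ACTA2) or passed neither MS78 test (FAS, RPS27L, SESN1, TGFA and TRIAP1). Of the 10 genes with a higher MS78 response in p53-Y220C cells, only AEN and GDF15 have a match. BLOC1S2, DRAM1, EPHA2, PGF, PLK2, PLK3, SERTAD1 and TRAF4 have no match in their windows, and these letters say nothing of sites elsewhere. A match describes the letters and is neither a bound site nor a cause of a response.

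Another 25 p53 target genes, which include the groups set aside in choosing the 45, were counted for comparison. This list too was chosen with earlier results of these data known. With MS78, 11 of the 25 rose (44%, against 24.9% of all genes tested) and 7 fell (28%, against 23.6%) in p53-Y220C cells. In p53-null cells 5 rose (20%, against 14.8%) and 9 fell (36%, against 13.3%). The interaction was higher for 12 (48%, against 14.4%) and lower for 5 (20%, against 12.4%). The largest interactions were those of GADD45A, a growth arrest gene (1.23, SE 0.07, adjusted p = 1.51e-10), LIF, a cytokine (1.06, SE 0.12, adjusted p = 1.56e-06), CDKN1A, the cell cycle inhibitor p21 (1.01, SE 0.07, adjusted p = 7.07e-10) and PMAIP1, the BCL2 family member NOXA (0.98, SE 0.11, adjusted p = 9.55e-07). GADD45A and PMAIP1 rose in p53-Y220C cells (0.88 and 0.39) and fell in p53-null cells (-0.36 and -0.59). LIF and CDKN1A rose in both lines, by 1.67 and 1.74 in p53-Y220C cells and 0.61 and 0.73 in p53-null cells. CDKN1A averaged 125 ± 6.7 CPM in Y220C MS78 and 37.4 ± 1.2 CPM in Y220C DMSO (SD, n = 4). Its means in the p53-null line were 83.6 ± 2.7 CPM in Null MS78 and 50.5 ± 2.7 CPM in Null DMSO.

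On the per-length scale of TPM, the mean over the 4 groups was at least 1 for 37 of the 45 genes, at least 10 for 21 and at least 50 for 3, EPHA2, GDF15 and TGFA. EPHA2 had 91.1 ± 7 TPM in Y220C MS78, 72.7 ± 1.3 in Y220C DMSO, 65.2 ± 2.5 in Null MS78 and 69.9 ± 4.8 in Null DMSO (SD, n = 4). GDF15 had 84.3 ± 2.7 TPM in Y220C MS78, 61.96 ± 1.3 in Y220C DMSO, 50.6 ± 1.4 in Null MS78 and 65.2 ± 5.1 in Null DMSO. Among the genes with a higher response in p53-Y220C cells, SERTAD1 had 45.9 ± 1.9 TPM in Y220C MS78, and AEN, PGF and PLK3 had 9.38 ± 1.4, 13.3 ± 1.4 and 7.46 ± 1 TPM in that group.

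**Figure D5:**
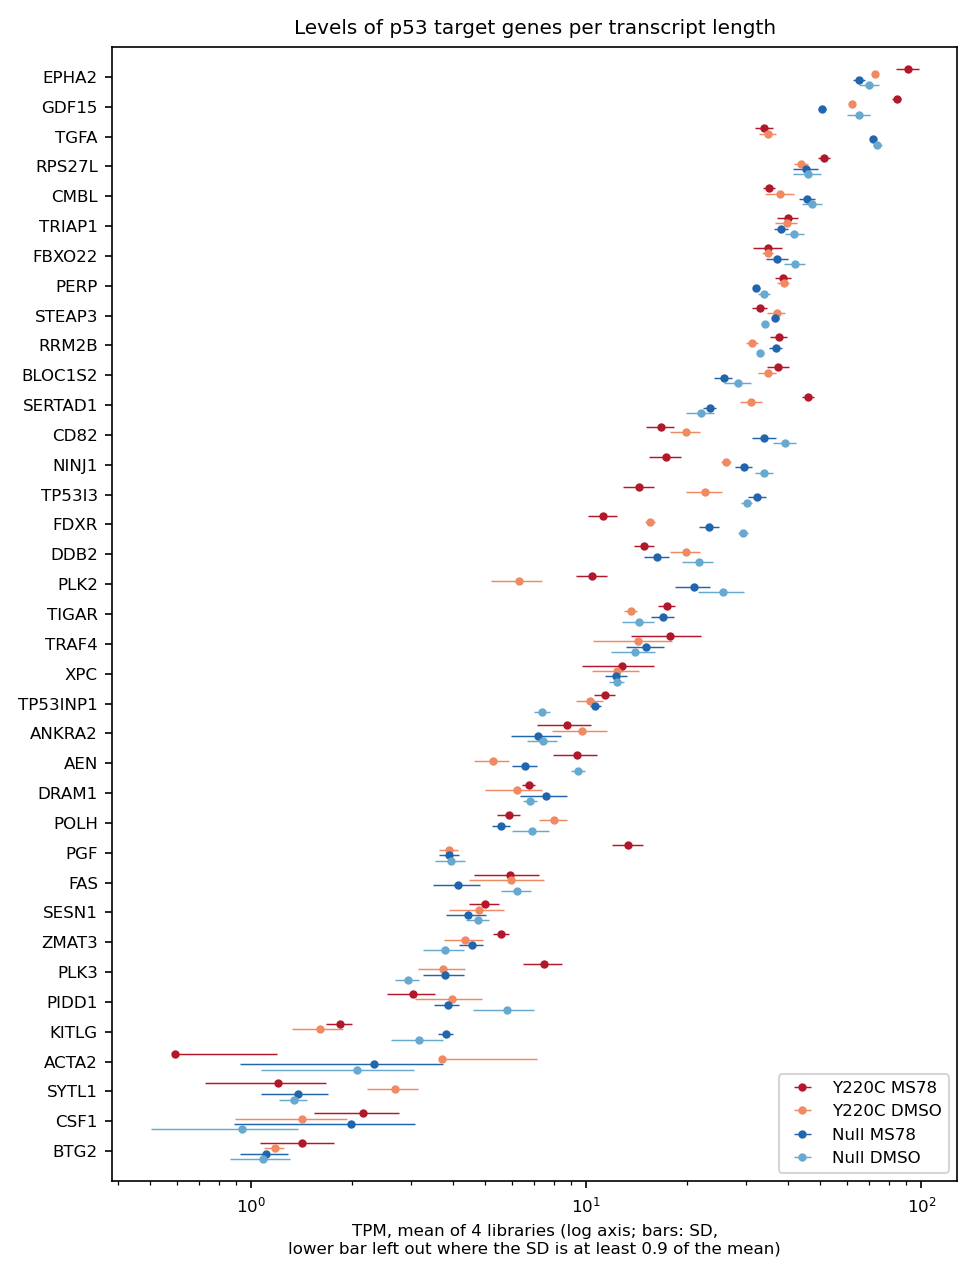
Mean TPM (horizontal log axis) of the 37 genes with a mean of at least 1 TPM in the 4 groups, with bars for the SD over 4 libraries, ordered by the mean over the groups. EPHA2, GDF15 and TGFA are at the top, and PGF, at 13.3 TPM in Y220C MS78, stands apart from its other 3 groups.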

How the data were processed

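RNA selected for poly(A) from NCI-H1299 cells, an established cell line, was sequenced in 16 libraries, and groups and replicate numbers were taken from the sample labels. The authors deposited Salmon-format tables with a line per transcript. Per the file headers, they hold the authors' estimated counts, which are not normalized. Per the file headers, they also hold the authors' TPM, which is scaled to effective length, and both transcript lengths. Read quality was checked with FastQC 0.11.8 and build hg38 was used, per the submitters' processing notes. Quantifier version, options, annotation and use of strand were not given in the sources used here. Where 2 genes overlap on opposite strands, as 24 of the 45 do with some gene, reads may therefore be shared. Overlap was taken over whole genes, introns included, and not over exons.

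Of 197653 transcripts per table, 193348 (97.82%) matched GENCODE 29 (GRCh38), and estimated counts were summed to 56865 genes and then rounded. The unmatched share of reads was 0.278% to 0.325% per library. Tests were quasi-likelihood F-tests of edgeR 4.0.16 (R 4.3.3, TMM, filterByExpr defaults) in a single fit of the 16 libraries, with a mean for each group and 12 residual degrees of freedom. The contrasts were MS78 against DMSO in each line, their difference (the interaction) and p53-Y220C against p53-null under DMSO. P-values are two-sided and adjusted by Benjamini-Hochberg over the 15687 genes tested, with a threshold of 0.05. "Rose" and "fell" are used of genes past it. CPM is relative to the TMM-scaled library total, values per library are in the order of replicates 1 to 4, and the SE is the size of a log2 fold change over the square root of its F statistic. The fit was tested on simulated data.

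The 45 genes, the other lists and the rule for naming genes were chosen with earlier results of these data known. The rule gives values in every library for genes past the interaction and for those called the same way in both lines without it. CSF1, TRIM22 and ACTA2 are shown by library after their values were seen. Alternatives were DESeq2 1.42.0 and its size factors, other filters, counts from TPM, a replicate block, a term for PTPRC reads, fits within libraries with and without them, and leaving out each library. Sharing of replicate numbers was checked and not taken as pairing. Replicates of a group differed by more than counting noise. The p53 gene and its regulators are not reported here. Floors cover counting error only.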

Additional observations from a re-analysis of the deposited data

Results flagged for a closer look

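The response to MS78 differed between the lines by the interaction test for 15 of the 41 tested genes, as log2 fold change in p53-Y220C cells minus that in p53-null cells. The response was higher in p53-Y220C cells for 10 (24.4%, against 14.4% of all genes tested) and lower for 5 (12.2%, against 12.4%). It was higher in p53-Y220C cells for PGF (1.62), AEN (1.24), GDF15 (0.84), PLK2 (0.82), PLK3 (0.78), SERTAD1 (0.49), EPHA2 (0.37), BLOC1S2 (0.28), TRAF4 (0.26) and DRAM1 (0.24). It was lower in p53-Y220C cells for SYTL1 (-1.12), TP53I3 (-0.56), NINJ1 (-0.38), TP53INP1 (-0.37) and STEAP3 (-0.26). The interaction calls of TRAF4 and DRAM1 were lost when single libraries were left out, as given above.

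In 7 of 168 groups of 4 libraries with at least 10 reads, 1 library stood apart from the other 3 by Dixon's criterion (the gap to the nearest library over the range), where chance gives about 1 in 20. In Y220C MS78, replicate 1 was low for FAS, with 7.27 CPM where the others had 8.71 to 8.83, and for CD82, with 24.1 CPM where the others had 28.2 to 28.6. Replicate 2 of Y220C MS78 was high for TP53INP1, with 57.4 CPM where the others had 50.7 to 51.1, and for POLH, with 17.96 CPM where the others had 15.5 to 15.9. It was low for FBXO22, with 38.8 CPM where the others had 41.6 to 41.9. In Y220C DMSO, replicate 1 was high for CSF1, with 5.91 CPM where the others had 2.16 to 2.61, and it is the library of that group with PTPRC reads. Replicate 2 of Y220C DMSO was high for FDXR, with 20.9 CPM where the others had 18.9 to 19.2.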

How the results depend on the processing

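Under DESeq2 size factors no call of a tested gene changed. The counts of genes called moved by over 1.5 times only within the libraries split by PTPRC reads, where groups shrink to 1 or 3 libraries. Shares are of the 42 genes tested in each set, against all genes in the same fit. With PTPRC reads, 5 fell in p53-Y220C cells (11.9%, against 14.1%), 3 rose in p53-null cells (7.14%, against 6.91%), 1 had a lower interaction (2.38%, against 4.16%) and 4 were higher in p53-Y220C cells under DMSO (9.52%, against 10.8%). Without them, 8 rose (19%, against 12.1%) and 4 fell (9.52%, against 9.28%) in p53-Y220C cells, and 1 rose (2.38%, against 3.45%) and 2 fell (4.76%, against 3.09%) in p53-null cells. The interaction was then higher for 4 (9.52%, against 1.83%) and lower for 0 (against 0.678%). The median log2 fold change was 0.17 with and 0.08 without PTPRC reads in p53-Y220C cells, -0.05 and -0.04 in p53-null cells and 0.10 and 0.11 for the interaction, and -0.06 with them under DMSO. In p53-null cells it was 0.01 from length-scaled TPM and -0.03 with a term for PTPRC reads. Leaving out 1 library gave medians of 0.09 to 0.13 in p53-Y220C cells, -0.04 to 0.00 in p53-null cells and 0.04 to 0.12 for the interaction, and 8 to 10 genes with a higher interaction.

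With the replicate number as a block, the median in p53-null cells was -0.02 and no count moved by over 1.5 times. The block ended the interaction call of TRAF4 (0.25, adjusted p = 0.0555) and the BLOC1S2 calls in p53-Y220C cells (0.13, adjusted p = 0.0574) and in p53-null cells (-0.15, adjusted p = 0.0542), and no other call. Same-numbered libraries deviated together in 5 of 24 pairs (correlation over 0.1, range -0.52 to 0.64). Of these, 3 were Y220C DMSO with Null DMSO, at 0.17, 0.52 and 0.64, where the remaining pair had 0.04. No pair of groups had every correlation over 0.1, and the numbers were not taken as pairs. The PTPRC reads fell on the same replicate numbers in both lines. With so few pairs the correlations cannot decide whether libraries were handled together by number. The interaction of DRAM1 was reversed to -0.04 with length-scaled TPM, and the difference of ZMAT3 under DMSO was reversed to -0.07 within the libraries with PTPRC reads. The cause was not tested. Genes under about 100 reads, such as SYTL1, TP53I11, PHLDA3 and ACTA2, have wide intervals at this depth.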
